A study of Mus musculus with 12 samples.

Results

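Incised mouse skin injected with a miR-29 mimic was compared with incised skin injected with phosphate-buffered saline (PBS), across every gene that the arrays measured. The comparison used 6 of the 12 arrays of the study, chosen by their labels alone: 3 labelled incision with 100 nmol promiR-29 and 3 labelled incision with PBS. All animals were male C57BL/6 mice of about 8 weeks. Each incised animal carried a sutured wound of 1 cm, received the mimic or vehicle into the dermis 72 h after wounding, and gave skin from the injected area 24 h later. The labels describe promiR-29 as a mimic of miR-29b. The other 6 arrays held intact skin injected with PBS or with 100 nmol of antimiR-29, an inhibitor of miR-29, and they entered the same fit. The control in both settings was vehicle without an oligonucleotide, so an effect of miR-29b and an effect of any injected oligonucleotide cannot be told apart. Each sample was a piece of whole skin with all of its cell types, and the labels name the 3 samples of a group as biological replicates.

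MicroRNAs are short RNAs that guide a silencing complex to messenger RNAs, mainly through pairing of their seed with sites in the 3′ untranslated region, and so lower the level or translation of those messages. The miR-29 family is known for a target set rich in extracellular matrix genes, among them collagens, elastin and fibrillin, and also for targeting DNA methyltransferases and apoptosis regulators. In healing skin, dermal fibroblasts lay down that matrix while neutrophils and then macrophages clear debris.

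The mature family members of the mouse are shown because the labels call the injected agent a mimic of miR-29b and the family shares its seed. They are printed from RefSeq (GRCm38.p6), with the seed, bases 2 to 8, in capitals.
mmu-miR-29a-3p: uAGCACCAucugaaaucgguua
mmu-miR-29b-3p: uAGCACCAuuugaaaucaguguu
mmu-miR-29c-3p: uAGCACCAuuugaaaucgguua
All 3 share the seed AGCACCA. Counted from the 5′ end, miR-29a differs from miR-29c by C10U, and from the longer miR-29b by C10U, G18A, U21G and A22U. The chemistry and exact strands of the injected mimic were not given in the sources used here.

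The arrays were dual-colour Agilent arrays with skin RNA in Cy5 and a universal mouse reference RNA in Cy3, and every level below is log2(Cy5/Cy3), the skin signal relative to that reference. Between 65.6 and 73.8% of the probes of an array passed the scanner program's test for Cy5 above background, with a median signal 3.67 to 5.00 times the local background and 0 saturated probes. The epidermal keratins Krt5 and Krt14 were far above the reference on all 6 incised arrays, with levels from 4.34 to 4.74 for Krt5 and from 3.90 to 4.43 for Krt14. The 3 incised PBS arrays and mimic array 1 lay on slide 1, and mimic arrays 2 and 3 lay on slide 2 with intact PBS arrays 1 and 2. Intact PBS array 3 and the 3 antimiR arrays lay on slide 3. Adipocyte marker scores, the median of the list with each gene centred over the 12 arrays, were -0.26, 0.76 and -0.15 on the PBS arrays and -0.50, -0.85 and 0.50 on the mimic arrays. PBS array 2 and mimic array 3 thus held the highest adipocyte scores of their groups. Among all 12 arrays, intact PBS array 3 correlated least with its own group (median r of 0.921).

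Of 20367 genes tested, 120 were called at a limma adjusted p under 0.05, which is 0.589% of genes. There were 41 higher (0.201% of genes) and 79 lower (0.388%) with the mimic. The 79 lower genes were led by Sfrp4, a secreted Wnt antagonist, and held fibroblast and skeletal muscle genes. The 41 higher genes held genes of neutrophils and macrophages, the collagenase Mmp8 being the largest rise of a named gene. In log ratios scaled between arrays the split turned, to 60 higher and 15 lower. Over all genes the median log2 fold change was -0.00. The groups of 3 arrays did not overlap at any of the 120 genes, beside 24.2% of all genes. Mimic array 1, which shares slide 1 with the PBS arrays and is among the arrays that made the calls, differed from their mean by medians of -0.76 at the lower genes and 0.67 at the higher genes, against -0.89 and 0.68 for all 3 mimic arrays.

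The count of calls was fragile. With slide as a fixed block 0 genes were called (1476 at an unadjusted p under 0.05 in limma). Without PBS array 1 the calls were 1 higher and 0 lower (1787 genes at an unadjusted limma p under 0.05), and without the other arrays in turn they were 7 and 15 (PBS array 2), 3 and 4 (PBS array 3), 15 and 38 (mimic array 1), 5 and 8 (mimic array 2) and 14 and 22 (mimic array 3). Without PBS array 2 and mimic array 3, the arrays of high adipocyte score, they were 0 higher and 2 lower (1737 at an unadjusted limma p under 0.05). Pram1 kept its call in all of these fits except the slide block and the fit without both of those arrays. Statements about single genes below give the result over all 12 arrays.

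**Figure D1:**
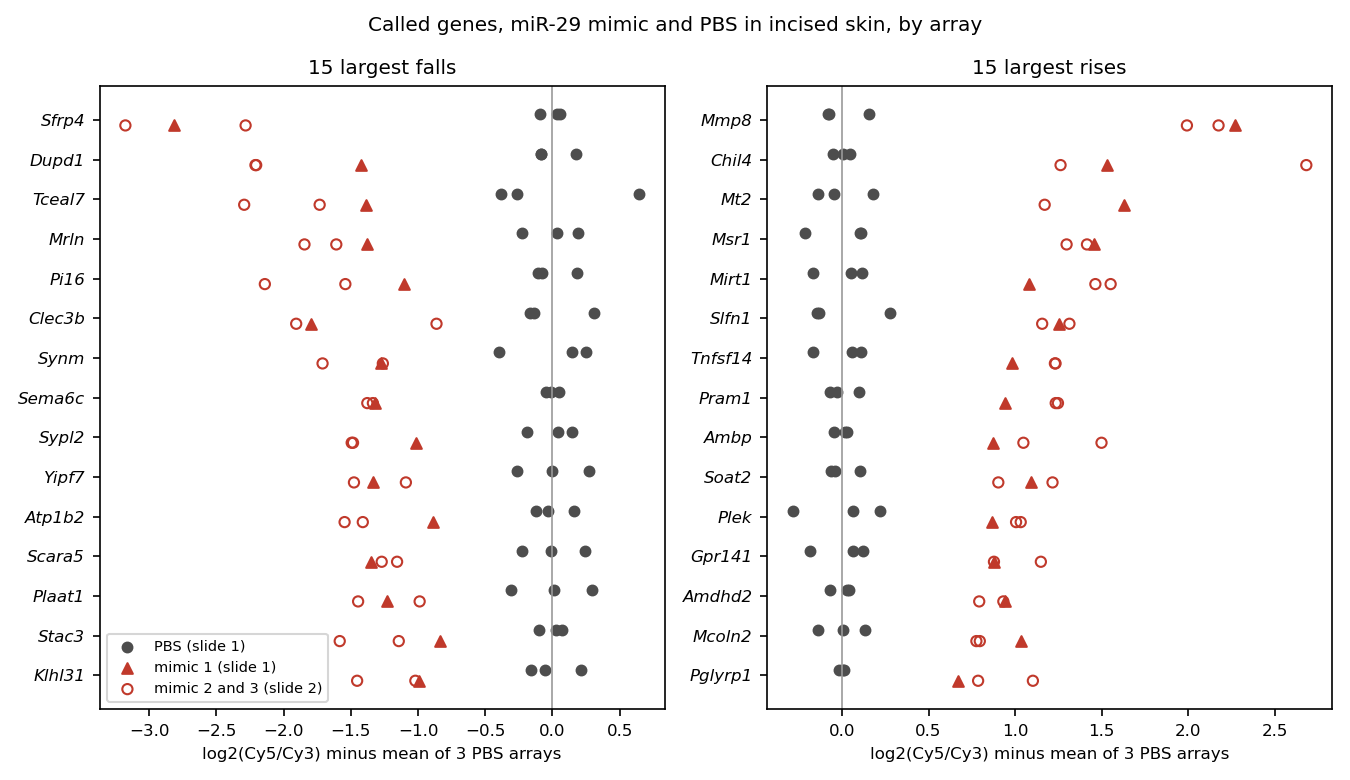
Level of the 15 genes with the largest called fall and the 15 with the largest called rise, on each of the 6 incised arrays, as log2(Cy5/Cy3) minus the mean of the 3 PBS arrays. Filled circles are PBS arrays, triangles mimic array 1 on the same slide, and open circles mimic arrays 2 and 3 on slide 2. The 30 genes were chosen among called genes whose groups do not overlap, so their separation is a condition of the choice.

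The largest fall was that of a dermal fibroblast gene. Sfrp4, which encodes a secreted frizzled-related protein that binds Wnt ligands, was 3.33, 3.31 and 3.18 on the PBS arrays and 0.46, 0.99 and 0.09 on the mimic arrays. Every mimic array lay more than 2 log2 units below every PBS array. The log2 fold change was -2.76 ± 0.30 (SE, limma adjusted p = 0.0086), and within slide 1 it was -2.81. The probe lies at chr13:19724488-19724547 (mm9, plus strand). In intact skin Sfrp4 stood at 4.18 ± 0.46 (SD, n = 3) with PBS and 3.43 ± 0.54 (SD, n = 3) with antimiR.

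Pi16, a peptidase inhibitor that marks an adventitial type of fibroblast, was 6.10, 5.80 and 5.84 with PBS and 4.81, 4.37 and 3.77 with the mimic, a change of -1.60 ± 0.22 (limma adjusted p = 0.018). Clec3b, which encodes the plasminogen-binding protein tetranectin, was 3.85, 3.88 and 4.32 against 2.22, 3.15 and 2.11, a change of -1.52 ± 0.25 (limma adjusted p = 0.029). Dpt, encoding the matrix protein dermatopontin, changed by -0.83 ± 0.15 (limma adjusted p = 0.037). Mimic array 2 was the highest of its group for Clec3b and still lay below all PBS arrays. These 3 and Sfrp4 were the called genes among 20 measured dermal fibroblast markers, beside 0.388% of all genes called lower. Of the 20, 17 were negative, 11 did not overlap between groups (all lower, beside 11.7% of all genes), and the median was -0.56. The median was negative in every alternative fit, from -0.65 to -0.26. Dpp4 (-0.85 ± 0.18), Cd34 (-0.63 ± 0.13) and Mfap5 (-0.79 ± 0.18) had groups that did not overlap and were not called (limma adjusted p = 0.072, 0.068 and 0.084). Lum (-0.46 ± 0.39) and Dcn (-0.41 ± 0.22), the abundant proteoglycans of the same cells, were not called. In whole skin, fewer cells of a type and less RNA per cell cannot be told apart.

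Outside the fibroblast list, Scara5, a ferritin receptor, was 1.98, 1.51 and 1.72 with PBS and 0.39, 0.58 and 0.46 with the mimic, a change of -1.26 ± 0.16 (limma adjusted p = 0.011), and its other probe gave -0.59 ± 0.14. Igfbp5 (-0.84 ± 0.15) and Igfbp6 (-0.75 ± 0.14), binding proteins that hold insulin-like growth factors outside the cell, were the called genes among 11 measured members of that axis. Over all genes, 0.388% were called lower. Igf1 itself (-0.31 ± 0.33) and its receptor Igf1r (0.06 ± 0.14) were not called. Chosen after their values were seen, Fndc1 (-1.15 ± 0.15), Dact1 (-1.04 ± 0.17), Islr (-0.84 ± 0.15) and the transcription factor Tbx15 (-0.83 ± 0.14) were called lower too. Among 10 measured secreted Wnt antagonists Sfrp4 was the called gene, the next in p being Sfrp2 at -0.80 ± 0.20 (limma adjusted p = 0.12), and the list median was -0.30.

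No matrix gene listed as a miR-29 target was called, although most lay lower with the mimic. Some were called lower in alternative fits: of 21, Col5a2 and Sparc in 3 each, Col3a1 and Fbn1 in 2 each and Eln in 1. Col1a1, Col1a2 and Lamc1 were not called in any. Of 38 listed, 37 were measured, 34 of them negative, with a median of -0.50 beside -0.00 over all genes. Their groups did not overlap at 23 of the 37 (62.2%), all of them lower, beside 11.7% of all genes, and 20 had an unadjusted limma p under 0.05 in the lower direction, beside 6.32% of all genes, and 0 in the higher, beside 6.19%. The median ranged from -0.67 to -0.41 over the alternative fits and was -0.50 within slide 1. Of the 37, Col19a1 and Col4a3 were not well above background on any incised array.

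Col1a1, a chain of type I collagen, the main collagen of dermis, was 2.76, 2.13 and 2.28 with PBS and 1.75, 1.29 and 0.28 with the mimic. Its partner chain Col1a2 was 2.65, 2.10 and 2.20 against 1.54, 1.21 and 0.38. Col3a1, the collagen of early repair tissue, was 3.83, 3.32 and 3.20 against 2.34, 2.19 and 1.48. At all 3 genes the groups did not overlap, and mimic array 3 was the lowest. The changes were -1.28 ± 0.51, -1.28 ± 0.44 and -1.45 ± 0.57, with limma adjusted p of 0.33, 0.25 and 0.33, so none was called. The fit pools the spread of all 4 groups. Intact PBS skin varied most, from 0.44 to 2.71 for Col1a1 and from -0.01 to 2.64 for Col3a1. Intact PBS array 3 was the lowest for both. Whether that spread kept these genes from a call was not tested. Over the alternative fits, which include the compared groups alone, the lowest limma adjusted p was 0.105 for Col1a1, 0.059 for Col1a2 and 0.040 for Col3a1.

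Col5a2, which caps the width of type I fibrils, was tighter, at 1.50, 1.50 and 1.53 against 0.58, 0.52 and 0.27 (-1.05 ± 0.29, limma adjusted p = 0.14). Sparc, a collagen-binding matricellular protein, was 2.12, 2.21 and 1.78 against 1.25, 1.01 and 0.93 (-0.97 ± 0.25, limma adjusted p = 0.12). Fstl1, a secreted glycoprotein, was 1.68, 1.64 and 1.47 against 0.52, 0.74 and 0.26 (-1.09 ± 0.31, limma adjusted p = 0.16). The groups did not overlap at any of these 3 genes. Elastin, Eln, changed by -0.74 ± 0.26, the fibrillin Fbn1 by -1.07 ± 0.47 and the laminin chain Lamc1 by -0.50 ± 0.15, all without a call. The type IV collagen chains of basement membrane, Col4a1 (-0.09 ± 0.23) and Col4a2 (-0.04 ± 0.19), which are also listed targets, had overlapping groups, as did Mmp2 (-0.32 ± 0.21) and Bmp1 (-0.24 ± 0.15).

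**Figure D2:**
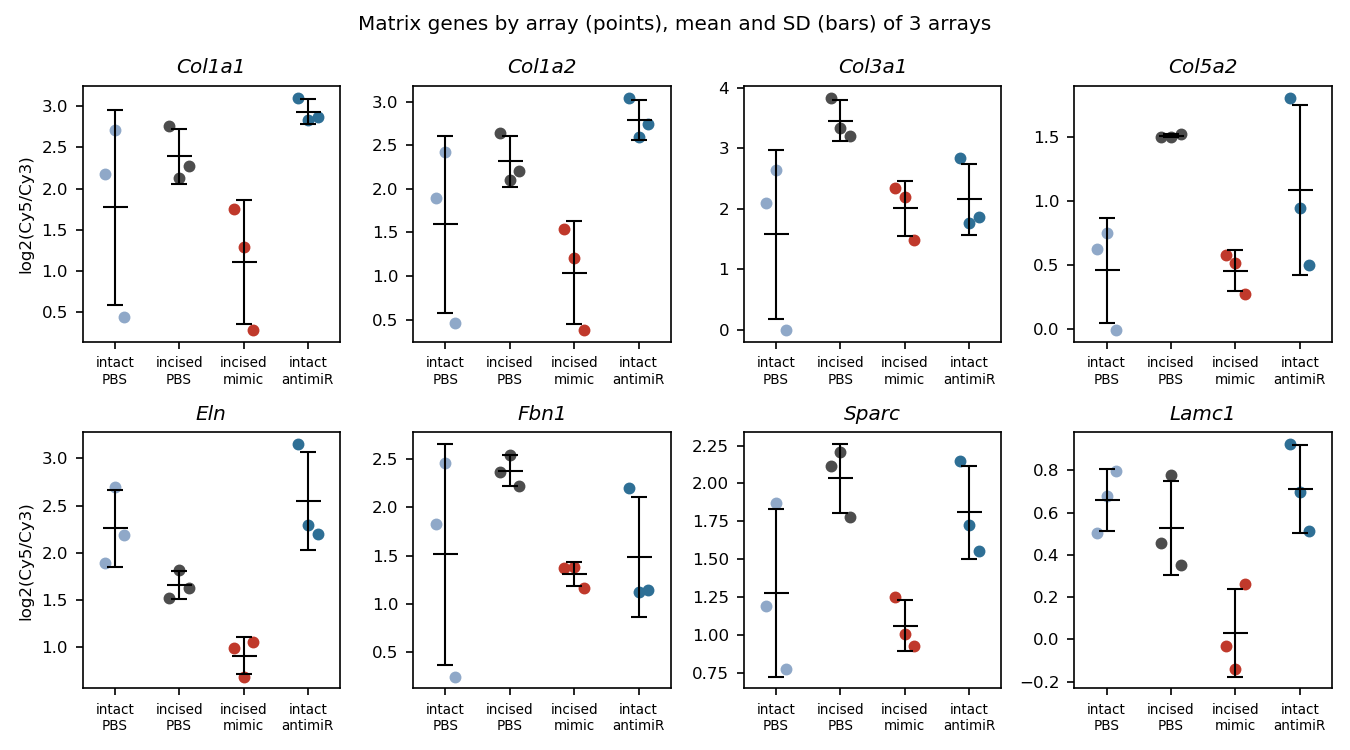
Levels of 8 matrix genes listed as miR-29 targets, as log2(Cy5/Cy3), in intact skin with PBS or antimiR and in incised skin with PBS or mimic; points are the 3 arrays of a group, in replicate order, and bars the mean and SD. Mimic arrays lie below the incised PBS arrays at all 8 genes, and intact PBS array 3 is far below its group for Col1a1, Col1a2, Col3a1 and Fbn1.

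By role, the fibrillar collagens had the lowest median, -0.86 over 10 measured genes, 9 of them negative and 0 called. Small leucine-rich proteoglycans had a median of -0.41 over 12 genes, other collagens -0.46 over 19, elastic fibre and microfibril genes -0.29 over 17, and enzymes and chaperones of collagen folding and crosslinking -0.24 over 25. Basement membrane collagens and laminins lay nearer the background, at -0.11 over 22 genes. No member of these lists was called, and each of these medians was negative in every alternative fit, although the scaled ratios brought the proteoglycans to -0.09 and the basement membrane genes to -0.07. Loxl2, a crosslinking lysyl oxidase, was 1.30, 1.15 and 1.67 against -0.06, 0.80 and -0.58 (-1.32 ± 0.46), and the collagen chaperone Serpinh1 changed by -0.75 ± 0.39, neither with a call.

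Targets listed outside the matrix lay nearer 0. Of 46 listed, 44 were measured, 31 negative, 0 called, with a median of -0.12. Tgfb3, a growth factor of the TGF-beta family, was 0.53, 0.41 and 0.28 with PBS and -0.38, -0.68 and -0.60 with the mimic (-0.96 ± 0.20, limma adjusted p = 0.066). The de novo DNA methyltransferase Dnmt3a was 0.36, 0.25 and 0.25 against -0.08, -0.27 and -0.31 (-0.51 ± 0.14, limma adjusted p = 0.15). In both genes every mimic array lay below every PBS array. Of 21 alternative fits, 3 called Tgfb3 lower and 2 called Dnmt3a lower. Dnmt3b (-0.01 ± 0.12), the demethylating enzymes Tet1 (-0.31 ± 0.20), Tet2 (-0.14 ± 0.09) and Tet3 (0.05 ± 0.10), and the survival gene Mcl1 (0.16 ± 0.11) had overlapping groups. The pro-apoptotic Bcl2l11 lay higher, at 0.42 ± 0.11, also without a call (limma adjusted p = 0.13), and its other probe gave 0.13 ± 0.07. Acta2, the smooth muscle actin of myofibroblasts, and Fn1, fibronectin, lay lower with groups apart and no call, at -0.24 ± 0.13 and -0.52 ± 0.38.

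The mimic effect was also set against the antimiR effect in intact skin, which shares no array with it, by a contrast of the 2 effects. That contrast called 223 of 20358 genes (1.1%), 95 of them lower (0.467%). Among listed targets, Adamts2, a procollagen peptidase, and Pdgfrb, a receptor of platelet-derived growth factor, were called lower, at -1.11 ± 0.20 (limma adjusted p = 0.029) and -1.40 ± 0.19 (limma adjusted p = 0.0097). In both genes the antimiR side was the larger: Adamts2 changed by -0.36 with the mimic and 0.76 with antimiR, and Pdgfrb by -0.12 with the mimic and 1.28 with antimiR. Adamts2 lost its call without any of the incised arrays except PBS array 2, with adjusted p from 0.050 (without mimic array 1) to 0.085 (without PBS array 1), and also without intact PBS array 1 or antimiR array 3 (both 0.055). It was also lost in scaled ratios (-0.48, adjusted p = 0.51), in the authors' deposited table (-0.56, 0.19), as the mean over probes (-0.55, 0.11), from Cy5 alone (0.068) and with slide as a fixed (0.27) or random block (0.058). Pdgfrb kept its call without any single array and lost it with slide as a fixed block (limma adjusted p = 0.13), in scaled ratios (0.18) and without PBS array 2 and mimic array 3 together (0.072). For Col1a2 and Fstl1 the difference was -2.48 ± 0.62 and -2.11 ± 0.44, without a call (limma adjusted p = 0.093 and 0.054).

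The seed match was searched in the array probes, which are 60 bases long and were read from the scanner files. Transcript sequences with untranslated regions were not used here, so a match says only that the letters stand in the probe. The motif TGGTGCT, the reverse complement of bases 2 to 8 of miR-29, searched on the sense strand that the probes carry, stood in 162 of 27149 probes (0.597%). These probes represented 118 genes, with a median change of -0.02 and 0 called in either direction. Their groups did not overlap in the lower direction at 13.6%, beside 11.7% of all genes, and in the higher at 5.08%, beside 12.5%. The match to let-7a, CTACCTC, stood in probes for 84 genes with a median of -0.00. Of these, 2 were called lower, beside 0.388% of all genes. Groups did not overlap at 13.1% in the lower direction and at 16.7% in the higher. The match to miR-21a, ATAAGCT, stood in probes for 54 genes with a median of 0.00 and 0 called. Their groups did not overlap at 13.0% in the lower direction and at 11.1% in the higher. The 4 windows below, from listed targets, have the match in capitals and are shown to place the letters beside the change of the probe that holds them.
Col7a1: ctgtgataccaTGGTGCTgatgggagggga
Pik3r1: aTGGTGCTtgttaacgcttt
Ppm1d: tcaataacaaaTGGTGCTgctaacacccaa
Col16a1: tggggttccccTGGTGCTg
In mm9 they lie at chr9:108886861-108886890 (plus strand), chr13:102454446-102454465 (minus strand), chr11:85160462-85160491 (plus strand) and chr4:129776501-129776519 (plus strand). The probes that hold them changed by -0.28 ± 0.18 for Col7a1, -0.18 ± 0.16 for Pik3r1, 0.11 ± 0.11 for Ppm1d and -0.43 ± 0.16 for Col16a1. The Col16a1 probe is not the one that represents its gene. The Col4a3 probe holds the match too and is not shown, since it was not well above background on any incised array. No called gene was represented by a probe with the miR-29 match.

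Genes of skeletal muscle, which in mice lies as a thin layer under the skin, also lay lower with the mimic. All 27 measured markers were negative, with a median of -0.56, and at all 27 the groups did not overlap, beside 11.7% of all genes; the log ratios scaled between arrays turned this median to 0.28. The called markers were the calcium pump Atp2a1 (-0.89 ± 0.17), the calcium buffer Pvalb (-0.65 ± 0.10) and the fast myosin heavy chain Myh1 (-0.56 ± 0.09), beside 0.388% of all genes called lower. Scaling between arrays turned Pvalb to 0.03 and Myh1 to 0.41, without a call. Myh1 was 6.39, 6.47 and 6.56 with PBS and 6.02, 5.87 and 5.83 with the mimic. The skeletal muscle score was 0.33, 0.15 and 0.26 on PBS arrays and -0.12, -0.52 and -0.41 on mimic arrays, the smallest gap being that of mimic array 1, on the PBS slide. Within slide 1 the median was -0.39. The amount of muscle taken with each piece of skin was not measured otherwise, and its part in these falls was not tested.

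Genes of calcium handling and excitation in muscle carried more of the calls. Of 20 measured, 19 were negative and 6 were called lower, beside 0.388% of all genes, with a median of -0.55 that stayed negative in every alternative fit (from -0.91 to -0.25). Mrln, the micropeptide myoregulin that restrains the calcium pump, was 3.91, 3.49 and 3.75 with PBS and 2.34, 2.11 and 1.87 with the mimic, a change of -1.61 ± 0.20 (limma adjusted p = 0.0091). Stac3, needed to couple the surface calcium channel to calcium release, was 3.81, 3.64 and 3.76 against 2.90, 2.15 and 2.59, a change of -1.19 ± 0.20 (limma adjusted p = 0.034). Every mimic array lay below every PBS array at both genes. Jsrp1 (-0.71 ± 0.09) and Hrc (-0.89 ± 0.16), proteins of the calcium store, and Atp2a1 and Pvalb, which the marker list also holds, were the other called genes.

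Other genes among the 15 largest falls stood in no muscle list. Dupd1, a dual-specificity phosphatase, was 4.35, 4.35 and 4.61 with PBS and 3.01, 2.23 and 2.23 with the mimic, a change of -1.95 ± 0.24 (limma adjusted p = 0.0091). Synm, an intermediate filament protein (-1.42 ± 0.17), Sypl2, a protein of the triad membrane (-1.33 ± 0.14), Klhl31 (-1.16 ± 0.21) and Yipf7 (-1.30 ± 0.21) were also among the 15 largest. So were Plaat1 (-1.22 ± 0.20), Atp1b2, a sodium pump subunit (-1.28 ± 0.19), and Sema6c, a semaphorin, at -1.34 ± 0.24; a second probe of Sema6c gave -0.35 ± 0.12. Chosen after their values were seen, Tmem38a (-1.07 ± 0.14), Myadml2 (-1.02 ± 0.12) and Mybpc1 (-0.91 ± 0.14) were called lower as well. Over the 3 muscle lists together, 56 distinct genes were measured, 52 were negative and 7 were called lower, which is 12.5% beside 0.388% of all genes. The subunits of cytochrome oxidase that muscle uses in place of common forms, Cox6a2 (-1.09 ± 0.25), Cox7a1 (-1.03 ± 0.32) and Cox8b (-0.70 ± 0.17), lay lower with groups apart and no call. Over the oxidative phosphorylation list the median was -0.23 over 26 genes, all 26 negative and 0 called.

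A family of related genes on the X chromosome was noticed after the called genes were seen. Tceal7, of the TCEAL family of small nuclear proteins related to a transcription elongation factor, was 5.05, 5.96 and 4.93 with PBS and 3.93, 3.58 and 3.02 with the mimic, a change of -1.80 ± 0.32 (limma adjusted p = 0.037). Tceal5 (-1.15 ± 0.19), Tceal6 (-0.89 ± 0.16) and the neighbouring Bex1 (-0.76 ± 0.14) were called lower too. Of 11 measured BEX and TCEAL genes, 10 on the X chromosome, 8 were negative and 4 called, beside 0.388% of all genes, with a median of -0.31. The family median was negative in every alternative fit, from -0.49 to -0.09, but the 4 calls were 0 in scaled ratios, 0 with slide as a fixed block, 1 without mimic array 1 and 0 without any other of the incised arrays. Bex3 (0.06 ± 0.11), Bex2 (0.18 ± 0.10), which was not well above background on any PBS array, and Bex6 (0.39 ± 0.14) were the positive members, without a call. Members of the family are similar in sequence, and the arrays cannot show whether a probe reads more than its own gene.

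**Figure D3:**
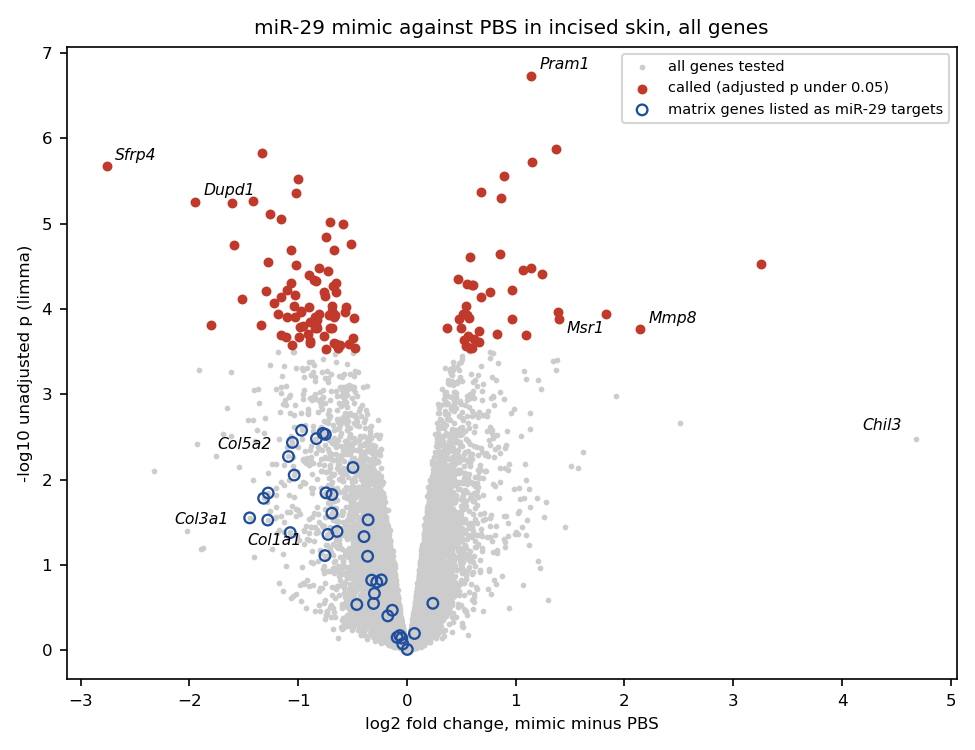
Log2 fold change of the mimic against PBS in incised skin (horizontal axis) and -log10 of the unadjusted limma p (vertical axis) for 20367 genes. Filled red points are the 120 called genes and open blue circles the 37 measured matrix genes listed as miR-29 targets, which lie to the left without reaching the calls.

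Genes of neutrophils and other myeloid cells were among the rises. Mmp8, the neutrophil collagenase, was 1.27, 1.51 and 1.28 with PBS and 3.62, 3.53 and 3.35 with the mimic, so that every mimic array lay more than 1 log2 unit above every PBS array. Its change was 2.15 ± 0.38 (limma adjusted p = 0.037), and 2.27 within slide 1. Mmp8 did not pass the background test on all 12 arrays. Pram1, an adaptor protein of granulocytes, was -0.48, -0.65 and -0.61 against 0.36, 0.67 and 0.65, a change of 1.14 ± 0.10 (limma adjusted p = 0.0038). Mirt1, a long non-coding RNA, was -0.06, 0.01 and -0.27 against 0.97, 1.36 and 1.45, a change of 1.37 ± 0.14 (limma adjusted p = 0.0086), while its other probes gave 1.26 ± 0.15 and 0.09 ± 0.08. These were the called genes among 24 measured neutrophil markers, beside 0.201% of all genes called higher. Of the 24, 17 were positive, with a median of 0.31, and 10 (all higher) had groups that did not overlap, beside 12.5% of all genes.

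The neutrophil median was 0.97 in scaled ratios. Markers of neutrophils differed among themselves. The chemokine receptor Cxcr2 was 1.93, 2.52 and 2.46 with PBS and 3.36, 3.66 and 3.91 with the mimic, without a call (1.34 ± 0.27, limma adjusted p = 0.060). The iron-binding Lcn2 (1.57 ± 0.48) and the lectin receptor Clec4d (1.12 ± 0.38) lay higher, also without a call. The granulocyte calcium-binding proteins did not: S100a8 was 5.68, 6.40 and 5.70 against 6.44, 5.81 and 5.26, and S100a9 was 6.88, 7.43 and 7.22 against 7.18, 7.11 and 6.88, with overlapping groups. Ly6g (-0.01 ± 0.36) and Csf3r (0.02 ± 0.15), which define the cell, also overlapped. Cxcr1, the sister receptor of Cxcr2, chosen after its values were seen, was called higher (limma adjusted p = 0.027). It was 0.07, 0.35 and 0.40 on the PBS arrays, where it was not well above background, and 0.94, 0.99 and 1.19 on the mimic arrays, where it was. The filter asked for 3 arrays above background, which the mimic arrays alone met. Cxcr1 could thus enter the test through the group where it was high, and its call is no separate support for Cxcr2.

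Scavenger and paired receptors of myeloid cells had a median of 0.61 over 22 measured genes, 17 of them positive. Msr1, a macrophage scavenger receptor for modified lipoproteins, was 0.95, 0.94 and 0.62 with PBS and 2.29, 2.13 and 2.25 with the mimic, a change of 1.39 ± 0.24 (limma adjusted p = 0.034). Trem3, an activating receptor, was -0.22, -0.13 and -0.14 against 0.42, 0.73 and 0.86, a change of 0.83 ± 0.15 (limma adjusted p = 0.042). These were the called members, beside 0.201% of all genes called higher. Groups did not overlap at 15 of the 22, all of them higher, beside 12.5% of all genes. Pira2 was 2.86, 2.61 and 2.71 against 4.64, 4.34 and 4.96, without a call (1.92 ± 0.43, limma adjusted p = 0.083), and it belongs to a family of near-identical genes whose probes may share signal. The list median was positive in every alternative fit, from 0.58 to 0.89.

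Macrophage markers split. Apart from Msr1, the lysosomal Cd68 (0.86 ± 0.19), the Fc receptor Fcgr1 (0.77 ± 0.30) and the chemokine receptor Ccr2 (0.99 ± 0.33) lay higher with groups apart, all without a call. The complement genes of resident macrophages C1qa (-0.41 ± 0.19), C1qb (-0.30 ± 0.27) and C1qc (-0.26 ± 0.15) and the folate receptor Folr2 (-0.26 ± 0.24) lay lower with groups apart, also without a call. Csf1r (-0.04 ± 0.18), Adgre1 (0.12 ± 0.46) and Itgam (-0.05 ± 0.13), which most macrophages carry, overlapped. The list median was 0.12 over 25 genes and 0.47 in scaled ratios.

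**Figure D4:**
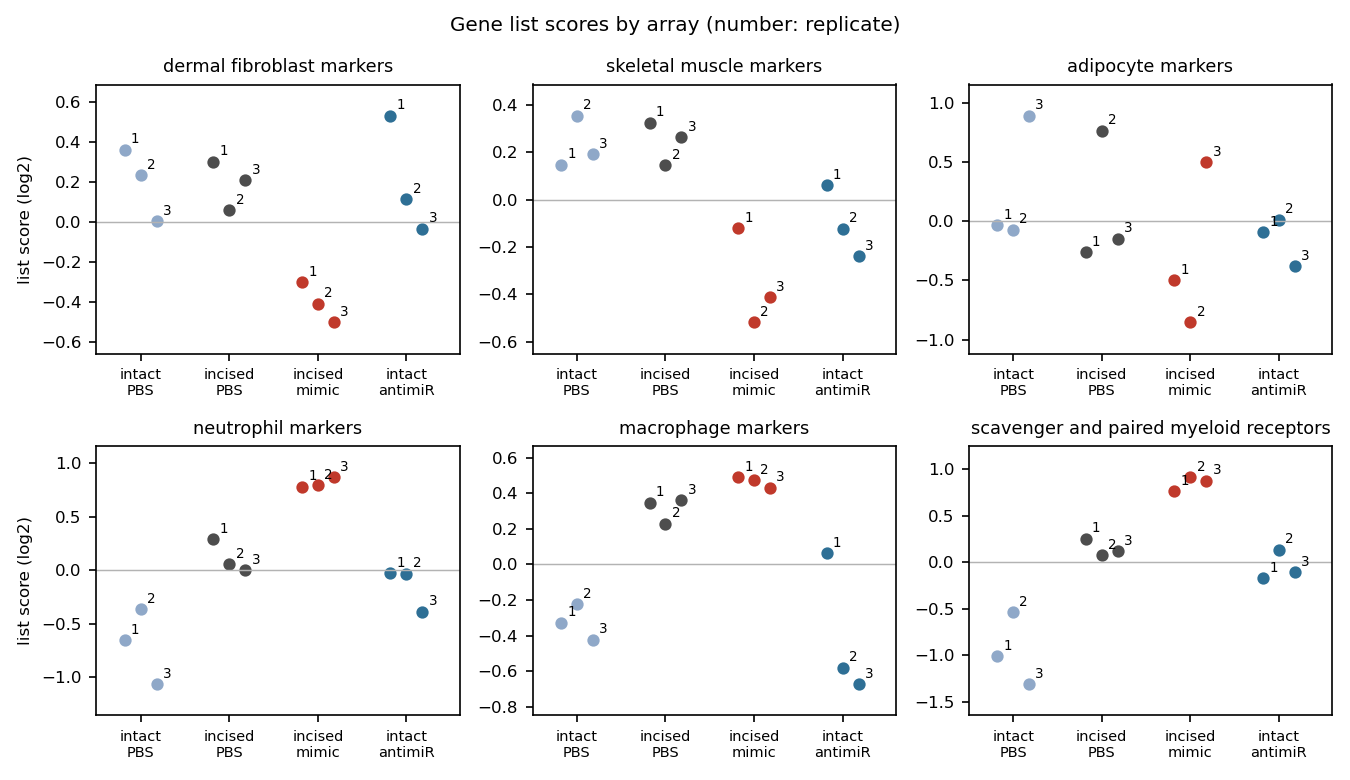
Scores of 6 gene lists (log2) on each array, as the median of the list with each gene centred over the 12 arrays; colours mark the 4 groups and numbers the replicates. Incised mimic arrays lie below incised PBS arrays for dermal fibroblast and skeletal muscle markers and above them for neutrophil, macrophage and scavenger receptor genes, and adipocyte scores overlap; the muscle median turns to 0.28 in ratios scaled between arrays, where the adipocyte median is 0.16.

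Chitinase-like genes lay higher with the mimic. Chil4 was 0.23, 0.27 and 0.17 with PBS and 1.76, 1.49 and 2.91 with the mimic, a change of 1.83 ± 0.31 (limma adjusted p = 0.034). It was well above background on 2 of the 3 PBS arrays. Chil3, a secreted lectin of macrophages and neutrophils, was -1.48 and -1.39 on the PBS arrays with a value and 3.35, 2.82 and 3.58 with the mimic. The change of 4.68 ± 1.22 was not called (limma adjusted p = 0.13). Chil3 was widely spread in intact antimiR skin (1.32 ± 2.88, SD, n = 3). An unnamed transcript of the array design at chr3:106100673-106100732 (mm9), chosen after its values were seen, gave the largest called rise, from 2.42, 1.99 and 2.18 to 5.18, 4.96 and 6.22, a change of 3.26 ± 0.47 (limma adjusted p = 0.023). It lies 94.1 kb from the Chil4 probe and 150.2 kb from the Chil3 probe on the same chromosome. The genes of this locus are close copies of each other, so a probe may read more than 1 of them. The longest run of letters that any pair of these 3 probes shares is 8. That run cannot decide the question, since the probes were not compared with the transcripts of the other genes. Among other genes of alternative activation, Arg1 (-0.07 ± 0.29) and Mrc1 (0.23 ± 0.32) were not called, and Retnla lay lower, at 5.09, 5.15 and 5.27 against 4.67, 4.48 and 3.99 (-0.79 ± 0.18, limma adjusted p = 0.084).

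Among chemokines and cytokines, Tnfsf14, also called LIGHT, a T cell costimulator of the TNF family, was the called gene. It was 0.68, 0.46 and 0.73 with PBS and 1.60, 1.86 and 1.85 with the mimic, a change of 1.15 ± 0.12 (limma adjusted p = 0.0086). Ppbp, a platelet and neutrophil chemokine, was 0.73, 1.47 and 0.03 against 2.35, 3.31 and 4.10, without a call (2.51 ± 0.63, limma adjusted p = 0.11). The monocyte chemokines Ccl2 (0.90 ± 0.43) and Ccl7 (1.12 ± 0.53), Ccl3 (0.81 ± 0.22) and Tnf (0.66 ± 0.20) had groups apart and no call, whereas Il1b (0.53 ± 0.54) overlapped. The list median was 0.30 over 23 genes, with 1 called, beside 0.201% of all genes called higher.

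Interferon-induced genes overlapped between the groups. Of 31 measured, 28 were positive with a median of 0.38, but 0 were called, and the groups were apart at 1 gene (3.23%), beside 24.2% of all genes. Mx1, an antiviral GTPase, was 3.42, 1.11 and 2.82 with PBS and 3.94 and 3.38 on the mimic arrays with a value. Isg15, a ubiquitin-like protein, was 1.80, 0.77 and 1.07 against 1.50, 1.65 and 1.00. The interferon score was 0.54, -0.24 and -0.04 on PBS arrays and 0.54, 0.54 and 0.14 on mimic arrays, so PBS array 1 stood as high as the mimic arrays. Schlafen genes, a family of immune cell regulators that interferon can induce, had groups apart at 7 of 8, beside 24.2% of all genes. Slfn1 was 1.38, 0.95 and 0.96 against 2.35, 2.25 and 2.41, a called change of 1.24 ± 0.19 (limma adjusted p = 0.025). It was the called member, beside 0.201% of all genes called higher. Slfn4 (1.45 ± 0.61), Slfn3 (1.14 ± 0.42) and Slfn2 (0.61 ± 0.20) lay higher and Slfn5 (-0.24 ± 0.09) and Slfn9 (-0.33 ± 0.15) lower, all with groups apart and without a call; another probe of Slfn5 gave 0.17 ± 0.13.

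Metallothioneins and genes of metal and oxidative stress were all positive, 12 of 12 measured, with a median of 0.30. Of these, 1 was called, beside 0.201% of all genes called higher. Mt2, a metal-binding protein, was 0.28, 0.05 and -0.04 with PBS and 1.73 and 1.27 on the mimic arrays with a value, a change of 1.40 ± 0.23 (limma adjusted p = 0.034). Mt1 was -0.40, -0.42 and -0.75 against 0.95 and 0.27, without a call (1.13 ± 0.28, limma adjusted p = 0.12). Mimic array 3 had no value for either, its spots having been left out as outliers. Hmox1, heme oxygenase, lay higher without a call (0.67 ± 0.20), and its other probe gave 0.28 ± 0.14.

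Further genes among the 15 largest rises were Ambp, the precursor of a protease inhibitor (1.14 ± 0.17), Soat2, which esterifies cholesterol (1.07 ± 0.16), Plek, a substrate of protein kinase C in blood cells (0.97 ± 0.15), and Gpr141 (0.97 ± 0.17). Amdhd2, an enzyme of amino sugar turnover (0.89 ± 0.10), the lysosomal channel Mcoln2 (0.87 ± 0.10) and Pglyrp1, a granule protein that binds bacterial peptidoglycan (0.85 ± 0.12), completed them. Ambp was 0.03, -0.03 and 0.04 with PBS and 0.89, 1.06 and 1.51 with the mimic. Pglyrp1 was 0.77, 0.77 and 0.74 against 1.43, 1.55 and 1.86. In both, all mimic arrays lay above all PBS arrays, a condition for a place among the 15 largest rises.

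The called genes were looked up in the antimiR comparison in intact skin, a count chosen after the calls were seen. The 2 comparisons share no array, although the fit gives them 1 estimate of spread. All 3 antimiR arrays lay on slide 3, where intact PBS array 3 was the only control, so antimiR and slide are largely confounded. Of the 41 genes higher with the mimic, 26 (63.4%) were also called higher with antimiR and 0 were called lower, where 1074 genes (5.28%) were called higher with antimiR over all; the 26 are 2.42% of those. Of the 79 lower genes, 16 (20.3%) were also called lower and 0 were called higher, where 911 genes (4.47%) were called lower; the 16 are 1.76% of those. With the 41 and 79 genes kept fixed, leaving out any of the 12 arrays or using any other setting that holds both comparisons left 19 or more of the 41 called higher with antimiR, and without antimiR array 2 the 16 became 7.

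Mmp8 rose from 0.25 ± 0.42 (SD, n = 3) in intact PBS skin to 2.12 ± 0.97 (SD, n = 3) with antimiR, a called change of 1.87 ± 0.38 (limma adjusted p = 0.013), and its mimic and antimiR effects differed by 0.28 ± 0.54. Slfn1 changed by 1.24 with the mimic and 1.60 with antimiR, Pram1 by 1.14 and 0.96, Plek by 0.97 and 1.43, and Amdhd2 by 0.89 and 1.28, all called in both. Dupd1 changed by -1.95 with the mimic and -1.96 with antimiR, also called in both. The mimic in incised skin and the inhibitor in intact skin thus had the same direction at these genes. At none of the 41 higher genes was the difference of the 2 effects called.

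Of the 79 lower genes, 8 had a called difference between the 2 effects, beside 1.1% of all genes. The 79 were chosen by their mimic effect, which is part of this difference. Calls of a lower mimic effect are thus partly built in, and the count is no separate evidence of a difference. Sypl2 changed by -1.33 with the mimic and 0.07 with antimiR, a difference of -1.40 ± 0.20 (limma adjusted p = 0.011). C1qtnf1, a secreted protein related to complement C1q, changed by -0.74 and 0.28, a difference of -1.02 ± 0.14 (limma adjusted p = 0.011). Cdon, Copz2, Gdf1, Prickle1 and Myadml2 were the others with a lower mimic effect, and Msrb3, a methionine sulfoxide reductase, was lower with both agents and more so with antimiR (-0.52 and -1.15). For Sfrp4 the effects were -2.76 and -0.75, with a difference of -2.01 ± 0.43 that was not called (limma adjusted p = 0.056).

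**Figure D5:**
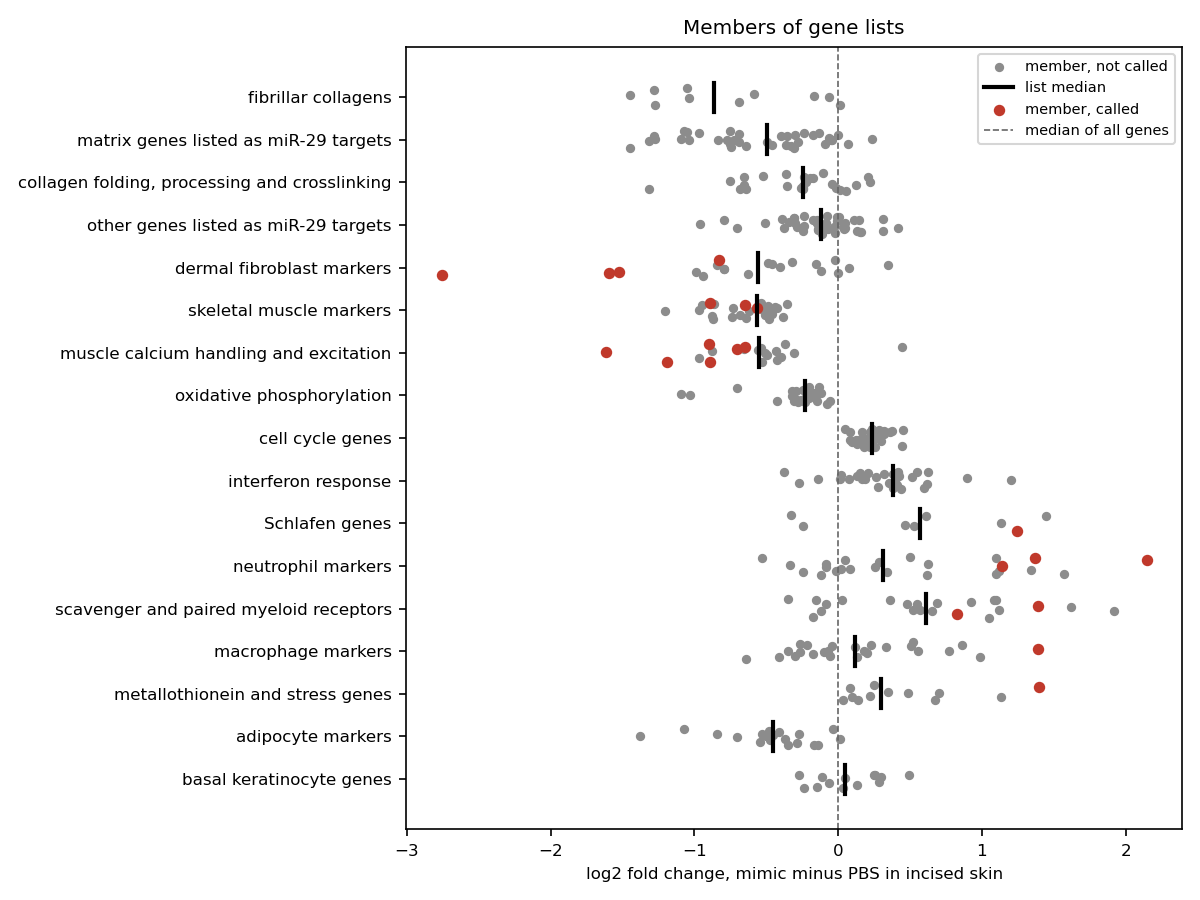
Log2 fold change of the mimic against PBS for the members of 17 gene lists, with called members in red, other members in grey, list medians as black bars and the median of all genes as a dashed line. Collagen and matrix target lists lie left of the line without called members, fibroblast and muscle lists hold called falls, and neutrophil and scavenger receptor lists hold called rises; ratios scaled between arrays move the skeletal muscle median to 0.28 and the adipocyte median to 0.16.

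Cell cycle genes were all positive, 29 of 29, with a median of 0.23 (0.01 in scaled ratios) and 0 called, and the proliferation marker Mki67 was -1.72, -1.14 and -1.45 with PBS and -1.05, -1.04 and -1.60 with the mimic. Markers of other cells of skin lay near the background, without a called gene. Medians were 0.03 over 18 endothelial and lymphatic markers, 0.05 over 13 basal keratinocyte genes, 0.03 over 15 hair follicle genes, 0.02 over 7 melanocyte markers and -0.13 over 17 T and NK cell markers. Each of these medians changed sign in at least 1 alternative. The scaled ratios moved the endothelial median to 0.41, the basal keratinocyte median to 0.51 and the melanocyte median to 0.41. Adipocyte markers had a median of -0.45 over 19 genes, 18 of them negative and 0 called, and Adipoq was 5.56, 6.30 and 5.85 against 5.04, 4.61 and 5.94, overlapping between groups; the scaled ratios turned that median to 0.16.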

How the data were processed

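Gene expression of 12 mouse skin samples was measured on dual-colour Agilent arrays. Per the file headers, the scanner files hold the intensity of spot and local background for both dyes, from Agilent Feature Extraction 11.5.1.1 with probes placed on mm9. The same files, per the file headers, give a processed intensity (background subtracted, dyes balanced) and its log10 ratio of red over green. The authors deposited a log2 table by gene name, whose normalization is not given in the sources used here. Its columns correlate with log2(Cy5/Cy3) at 0.894 to 0.921, so they run as skin over reference.

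Mean signals were corrected by normexp (offset 50) and normalized by loess within arrays in limma 3.58.1 (R 4.3.3), with control spots at weight 0 and outlier spots left out. Probes entered if their Cy5 passed the background test on 3 or more arrays (27149 of 39429 distinct probes), and a gene took its kept probe of highest average intensity. Of 20367 genes, 17440 were named through RefSeq, and 1024 lacked a value on some array and were fitted on the others. Means of the 4 groups were fitted on all 12 arrays with lmFit and eBayes, 2-sided, Benjamini-Hochberg adjusted over all genes, and a gene was called at adjusted p under 0.05. Errors after a fold change are standard errors of this fit. The fit was tested on simulated data. The simulated noise was independent between genes and arrays, without slide effects, so that test does not bear on how the calls depend on slide or single arrays. The number of arrays limits the precision.

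The members and the 47 gene lists were chosen with earlier results of these data known. Lists have no test: counts and medians are given beside all genes. Named genes are the 15 largest called rises and falls with groups apart, without RIKEN, predicted or unnamed genes, up to 4 members of smallest p of each list, and fixed matrix, methylation and growth factor genes; genes named beside these, some chosen after their values were seen, are list members or called genes. Replicate numbers did not pair the samples: deviations of same-numbered incised arrays correlated at 0.29, -0.34 and -0.38. Alternatives changed the background correction, normalization, channel, filter, probe, samples in the fit, variance model, slide, replicate block and arrays left out. A search of untranslated regions for seed matches was not run, since no such sequences were used here. A result for 1 listed gene is not reported here.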

Additional observations from a re-analysis of the deposited data

How the results depend on the processing

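Of the 39 called genes that the naming rule picks, each kept its sign in every alternative that tested it, except Pvalb (0.034) and Myh1 (0.41) in log ratios scaled between arrays. Much of this was fixed in advance. Trend and robust moderation, the compared groups alone and the replicate block leave fold changes without missing values, and list medians over such genes, as they are. A gene with groups apart also keeps its sign when 1 array is left out. The counts of called genes, 41 higher and 79 lower over all arrays, depended strongly on the setting. They were 14 and 24 with the program's processed signals without loess, 15 and 27 from Cy5 alone, 10 and 19 from the authors' deposited log2 table, and 21 and 37 with slide as a random block (correlation 0.11). They were 0 and 0 with slide as a fixed block and 0 and 2 without PBS array 2 and mimic array 3 (chosen after seeing the data). They rose to 190 and 246 with only the compared groups in the fit, and to 339 and 374 with array weights. They were 60 and 15 with scaling between arrays, 33 and 36 with trend and robust moderation, and 56 and 150 with the replicate block. They were 28 and 79 where Cy5 had to be well above background on all 12 arrays, over 16963 genes. That fit held 32 of the 39 named called genes. Mmp8, Slfn1, Tnfsf14, Chil4, Trem3, Ambp and Gpr141, all rises, did not meet its filter. Among the genes that the naming rule picks outside those 39, 32 gained a call with only the compared groups, 48 with array weights and 23 with the replicate block. Leaving out 1 incised array gave from 1 to 15 higher and from 0 to 38 lower.

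Listed targets called lower in the difference of mimic and antimiR effects, 2 over all arrays, numbered 4 with processed signals, 5 with array weights, 0 with scaling and without both arrays of high adipocyte score, and 1 with Cy5 alone, the mean over probes, or slide as either block; leaving out 1 incised array gave 1 to 2. The next counts keep the 41 higher and 79 lower genes fixed and repeat only the antimiR calls, with alternatives chosen after seeing the data. Of the 79, 16 were called lower with antimiR over all arrays, 10 with processed signals, 7 with Cy5 alone and 10 in the deposited table, and from 7 to 16 without 1 array. Of the 41, 26 were called higher with antimiR, and between 19 and 28 in these alternatives. The causes of these changes were not tested. The seed match alternatives that need untranslated regions were not run. The replicate block kept 26 of the calls of the 39 named called genes. It leaves the fold change of a gene without missing values as it is, so it could turn no sign of such a gene.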
